A study of Mus musculus with 12 samples.

Results

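The 10 genes described here, Acly, Me1, Acaca, Acacb, Fasn, Elovl6, Scd1, Srebf1, Mlxipl and Thrsp, make up the core of de novo lipogenesis in the liver and its regulators. They were chosen by name and by no rule on their values, though with earlier results of these data known. All 10 were found among the 16821 genes listed by NCBI gene ID and symbol. Liver RNA of 12 mice was sequenced, each in its own library. Of these, 6 were sedentary controls (Con) and 6 belonged to the group of chronic exercise (Exe). All were adult male C57BL/6J mice, bought at an age of 8 weeks, with free access to food and water, and no genetic change is named for either group. Running on a treadmill went on for 6 weeks in Exe mice, and the Con mice were kept in that room with no treadmill. Livers of both groups were cleared of blood with saline and taken within a day of the last run, in the dark phase, so the last bout and the training cannot be told apart. The libraries are of whole liver, in which fewer cells of a type and less RNA per cell cannot be told apart.

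De novo lipogenesis builds fatty acids from acetyl-CoA in the cytosol of hepatocytes. Citrate leaves the mitochondria and is cleaved to acetyl-CoA, which is carboxylated to malonyl-CoA, joined into palmitate by fatty acid synthase, and then lengthened and desaturated, with NADPH as the reductant. In the liver the genes of this pathway are known to rise with feeding through SREBP-1c, which answers to insulin, and ChREBP, which answers to glucose, and to fall with fasting.

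Expression was given as FPKM, the number of sequenced fragments divided by transcript length and by the library's mapped fragments, so that the levels of different genes can be set side by side. Summed over genes, a mouse had 735200 to 820107 FPKM. The files hold no read counts and the depth is unknown, so the only error given is the spread over the 6 mice of a group. Groups were compared with limma on log2(FPKM + 1) over 10241 genes, those that reached 1 FPKM in 6 or more mice, a filter that all 10 genes passed. With Benjamini-Hochberg adjustment over these genes, 0 genes reached an adjusted p of 0.05. At an unadjusted p under 0.05, 437 genes were higher in Exe mice and 199 lower, and with mice scaled by their median ratio 326 were higher and 294 lower. Hepatocyte markers were abundant in every mouse (7 genes in the files, summed to between 54973 and 80058 FPKM). Adipoq, Plin1 and Retn, markers of fat tissue, which also makes fatty acids, were each at 0.18 FPKM or lower in all mice. P-values are over mice, with a library from each.

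By level, Scd1 came first with a mean of 700.4 FPKM over the 12 mice, followed by Thrsp with 367.9 FPKM and Mlxipl with 101.2 FPKM. Fasn (68.3 FPKM), Acly (66.1 FPKM) and Srebf1 (58.1 FPKM) lay close together, and Fasn was above Acly in 7 of the 12 mice. Me1 was at 34.9 FPKM, Elovl6 at 12.5 FPKM, Acaca at 10.1 FPKM and Acacb at 9.96 FPKM. Acaca and Acacb could not be separated by level, since Acaca was above Acacb in 8 of 12 mice. The ranges of all neighbours in this order overlapped. Together the 10 genes held between 0.0896% and 0.314% of the summed FPKM of a mouse, lowest in Con 2 and highest in Exe 2.

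All 10 genes had a log2 fold change above 0 in Exe mice, from 0.02 for Scd1 to 0.57 for Thrsp and Acacb, with a median of 0.37 against 0.02 over all genes tested. Of all genes tested, 57.5% were above 0. None reached an adjusted p of 0.05 (0% of all genes tested did). At an unadjusted p of 0.05, 4 of the 10 passed (Acly, Acacb, Elovl6 and Acaca), all higher in Exe mice, where 6.21% of all genes tested passed, 4.27% in this direction and 1.94% in the other. Since the genes vary together between mice, as described further down, these counts are not independent. The count was 3 without Exe 2, and 2 without Con 1, Con 2, Con 4, Con 5, Exe 1 or Exe 6. Scd1 was the exception in direction, since its log2 fold change was below 0 with quantile normalization, with median ratio scaling and in 5 of the 12 fits with a mouse removed.

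Promoter windows of 9 of the 10 genes were taken from RefSeq (build GRCm38.p6, 250 bases before to 50 after each start site, 13 windows, since Me1, Srebf1 and Mlxipl have several). The windows of Fasn, Acly and Elovl6 are shown because these genes had their highest values in 1 mouse, Exe 2, and varied together, and those of Acacb and Thrsp because these had the largest log2 fold changes. Acaca was also highest in Exe 2 and varied with Fasn, Acly and Elovl6, but its window, which holds no CCAAT on either strand, is not shown. Sequences run 5′ to 3′ on the gene's strand, and capitals mark CCAAT on either strand (read as ATTGG on the other), the box bound by NF-Y.

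Fasn (chr11:120824498-120824797, minus strand): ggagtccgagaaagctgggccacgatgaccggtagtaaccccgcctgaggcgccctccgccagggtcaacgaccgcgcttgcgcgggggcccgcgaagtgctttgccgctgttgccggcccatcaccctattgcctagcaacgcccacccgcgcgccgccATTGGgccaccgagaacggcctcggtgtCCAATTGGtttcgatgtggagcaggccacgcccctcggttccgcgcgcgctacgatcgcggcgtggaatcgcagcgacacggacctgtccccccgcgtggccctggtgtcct
Acly (chr11:100527951-100528250, minus strand): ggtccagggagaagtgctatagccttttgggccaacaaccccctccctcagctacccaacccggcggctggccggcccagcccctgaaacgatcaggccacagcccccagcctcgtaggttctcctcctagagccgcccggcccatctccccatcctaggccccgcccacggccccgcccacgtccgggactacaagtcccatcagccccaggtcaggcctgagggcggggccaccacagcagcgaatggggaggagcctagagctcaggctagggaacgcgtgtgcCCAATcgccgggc
Elovl6 (chr3:129532136-129532435, plus strand): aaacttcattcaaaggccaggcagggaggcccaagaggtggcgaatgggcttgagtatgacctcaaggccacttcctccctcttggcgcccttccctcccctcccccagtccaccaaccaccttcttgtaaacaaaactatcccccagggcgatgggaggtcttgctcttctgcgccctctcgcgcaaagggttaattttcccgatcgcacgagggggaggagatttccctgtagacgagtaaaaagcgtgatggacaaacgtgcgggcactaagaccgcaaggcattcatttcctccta
Acacb (chr5:114165268-114165567, plus strand): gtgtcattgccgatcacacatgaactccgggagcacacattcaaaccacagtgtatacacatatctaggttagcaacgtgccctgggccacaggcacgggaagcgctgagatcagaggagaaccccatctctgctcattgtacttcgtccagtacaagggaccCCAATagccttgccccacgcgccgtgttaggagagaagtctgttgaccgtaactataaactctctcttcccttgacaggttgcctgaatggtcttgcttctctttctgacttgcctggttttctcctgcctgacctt
Thrsp (chr7:97417501-97417800, minus strand): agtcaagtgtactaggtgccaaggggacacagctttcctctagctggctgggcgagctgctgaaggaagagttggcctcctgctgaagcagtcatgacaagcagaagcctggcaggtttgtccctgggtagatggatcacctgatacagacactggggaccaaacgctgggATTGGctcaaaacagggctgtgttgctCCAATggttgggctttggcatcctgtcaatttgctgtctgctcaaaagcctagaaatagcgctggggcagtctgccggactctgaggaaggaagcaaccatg

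In these windows Fasn held 3 such boxes, starting at positions -90, -62 and -59 from the start site, of which the last 2 overlap. Thrsp held 2, at -79 and -52, Acacb had 1 at -87, Acly had 1 that starts at 38, downstream of the start site, and Elovl6 had none. The box was in 8 of the 13 windows, from 7 genes, and in 37.4% of all 32851 RefSeq windows of the same length. The E-box CACGTG was in 1 of the 13 windows (Mlxipl, at -98) and in 7.15% of all windows, and the sterol regulatory element core TCACNCCAC in 1 (Mlxipl, a second window, at -136) and in 1.24% of all windows. Both strands were searched, and no motif was looked for outside these windows.

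**Figure D1:**
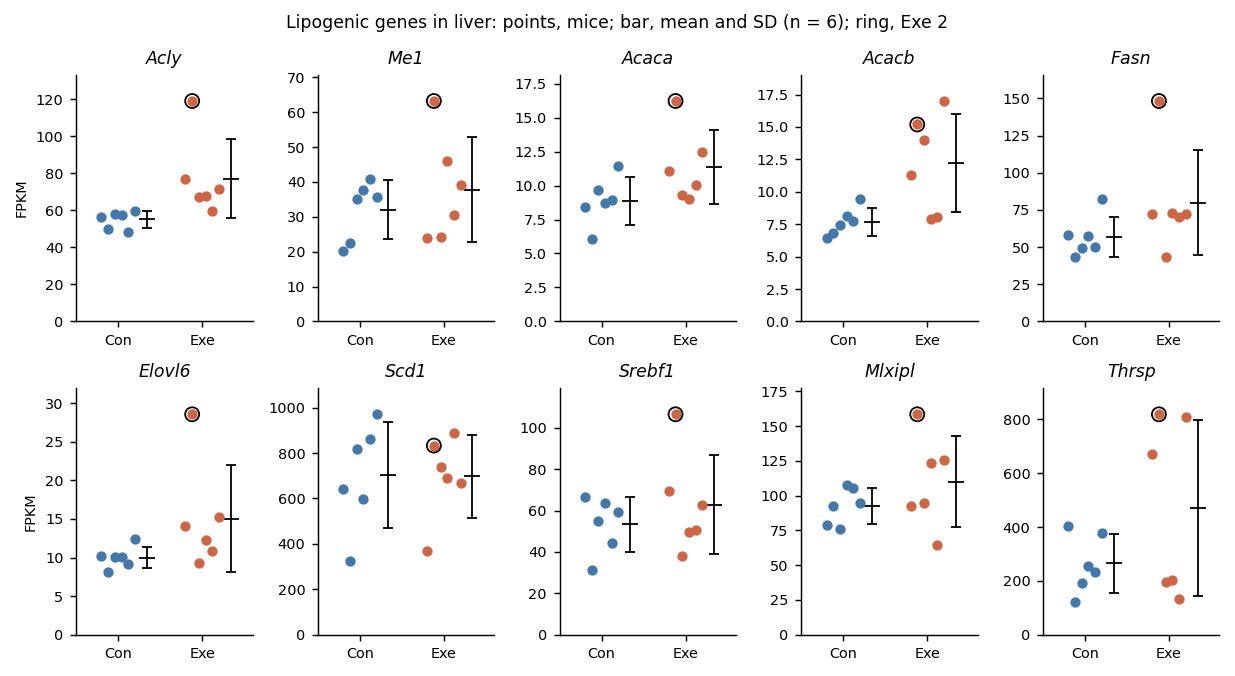
FPKM of the 10 genes in each of the 6 Con (blue) and 6 Exe (orange) mice, on linear axes that start at 0, with the mean and SD of each group as a bar and a ring around Exe 2. Exe 2 was the highest of the 12 mice in 8 of the 10 genes, and the groups were apart in Acly only.

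At the supply of acetyl-CoA and NADPH, Acly (NCBI gene ID 104112), ATP citrate lyase, cleaves citrate into acetyl-CoA and oxaloacetate. Its lowest, median and highest FPKM were 48.4, 57.1 and 59.7 in Con mice and 59.8, 69.6 and 119.1 in Exe mice. All 6 Exe mice were therefore above all 6 Con mice, by a margin as small as that between Con 6 (59.74 FPKM) and Exe 5 (59.81 FPKM), whereas 0.234% of all genes tested were apart in this direction. The group means were 55.1 ± 4.7 FPKM and 77.0 ± 21.4 FPKM (SD, n = 6), and the log2 fold change was 0.44 (95% limits 0.16 to 0.73, unadjusted p = 0.00519, adjusted p = 0.789 from limma). The exact two-sided permutation test gave p = 0.00216, the smallest p that 6 against 6 mice allow. Without Exe 2, the highest mouse, the log2 fold change was 0.31, and the unadjusted p from limma stayed between 0.00138 and 0.0131 over the 12 fits with a mouse removed.

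Me1 (17436), the cytosolic malic enzyme, makes NADPH from malate. In FPKM, the lowest, median and highest values were 20.2, 35.5 and 40.7 in Con mice and 24.0, 34.7 and 63.2 in Exe mice. The groups overlapped over most of their range and their medians were nearly equal. The log2 fold change was 0.19 (95% limits -0.32 to 0.71, adjusted p = 0.947 from limma), and 0.03 without Exe 2. Such limits leave room for a fold between 0.80 and 1.63.

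At the carboxylation step, Acaca (107476) encodes acetyl-CoA carboxylase 1, the cytosolic enzyme whose malonyl-CoA feeds fatty acid synthase. The lowest, median and highest mice were at FPKM of 6.03, 8.83 and 11.5 in Con mice and 9.01, 10.6 and 16.2 in Exe mice, and all 6 Exe mice were above the Con median. Its fitted log2 fold change was 0.32 (95% limits 0.01 to 0.63, unadjusted p = 0.0459, adjusted p = 0.799 from limma), and the exact permutation test, two-sided, gave p = 0.0714. It was past an unadjusted p of 0.05 in 5 of the 12 fits with a mouse removed, and not without Con 1, Con 2, Con 4, Con 5, Exe 1, Exe 2 (log2 fold change 0.22) or Exe 6. The unadjusted p from limma was also above 0.05 with quantile normalization (0.0509), median ratio scaling (0.0564) and no filter (0.0556).

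Acacb (100705) encodes acetyl-CoA carboxylase 2, which sits at the mitochondrial outer membrane and whose malonyl-CoA restrains the uptake of fatty acids for oxidation. Its lowest, median and highest FPKM were 6.42, 7.62 and 9.44 in Con mice and 7.93, 12.6 and 17 in Exe mice. Exe 1, Exe 2, Exe 3 and Exe 6 were above every Con mouse, and Exe 4 and Exe 5 lay among the upper Con mice. The group means were 7.67 ± 1.07 FPKM and 12.2 ± 3.77 FPKM (SD, n = 6), a ratio of 1.6. The log2 fold change was 0.57 (95% limits 0.21 to 0.93, unadjusted p = 0.00456, adjusted p = 0.761 from limma), and the exact permutation test (two-sided) gave p = 0.0195. Exe 6 and not Exe 2 held the highest value, and over the 12 fits with a mouse removed the unadjusted p stayed between 0.000867 and 0.0124. The ratio of Acaca to Acacb in a mouse ran from 0.89 to 1.31 in Con mice and from 0.67 to 1.25 in Exe mice, lowest in Exe 3 (0.67) and Exe 6 (0.73).

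In synthesis, elongation and desaturation, Fasn (14104), fatty acid synthase, joins malonyl-CoA units into palmitate. In FPKM, the lowest, median and highest values were 43.1, 53.6 and 82.2 in Con mice and 43.2, 72.5 and 148.2 in Exe mice. Con 6 (82.2 FPKM) was above every Exe mouse but Exe 2, and Exe 3 was as low as the lowest Con mouse, so the groups overlapped. Its fitted log2 fold change was 0.42 (95% limits -0.07 to 0.91, unadjusted p = 0.087, adjusted p = 0.849 from limma). It was 0.23 without Exe 2, 0.53 without Con 6 (unadjusted p = 0.0352 from limma) and 0.58 without Exe 3 (unadjusted p = 0.014 from limma). The limits on the fold ran from 0.95 to 1.88.

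Elovl6 (170439), a fatty acid elongase, lengthens palmitate to stearate. The lowest, median and highest mice were at FPKM of 8.15, 10.1 and 12.4 in Con mice and 9.31, 13.2 and 28.6 in Exe mice. Exe 1, Exe 2 and Exe 6 lay over the Con range, with Exe 2 at 1.87 times the level of the next Exe mouse. The log2 fold change was 0.46 (95% limits 0.03 to 0.89, unadjusted p = 0.0367, adjusted p = 0.799 from limma), and the exact two-sided permutation p was 0.0455. Without Exe 2 it was 0.27 (unadjusted p = 0.045 from limma). It was past an unadjusted p of 0.05 in 5 of the 12 fits with a mouse removed, and not without Con 1, Con 2, Con 3, Con 4, Con 5, Exe 1 or Exe 6, where the p from limma reached 0.075.

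Scd1 (20249), stearoyl-CoA desaturase, places the first double bond in stearate and palmitate. Its lowest, median and highest FPKM were 326.9, 730.0 and 970.7 in Con mice and 368.0, 713.9 and 887.5 in Exe mice. The low values were those of Con 2 and Exe 1, with the other mice at 598.6 FPKM or above. Its fitted log2 fold change was 0.02 (95% limits -0.54 to 0.57, adjusted p = 0.997 from limma), which span folds from 0.69 to 1.49. It ran from -0.19 without Con 2 to 0.19 without Exe 1.

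Among the regulators, Srebf1 (20787) encodes SREBP-1a and SREBP-1c, membrane-bound transcription factors that are released by proteolysis, and the files give 1 value for both. In FPKM, the lowest, median and highest values were 31.1, 57.1 and 66.6 in Con mice and 38.2, 56.8 and 106.5 in Exe mice. The medians were within 1 FPKM of each other, and the log2 fold change was 0.20 (95% limits -0.29 to 0.69, adjusted p = 0.937 from limma), or 0.04 without Exe 2.

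Mlxipl (58805) encodes ChREBP, whose activity follows glucose metabolites. The lowest, median and highest mice were at FPKM of 75.8, 93.7 and 107.4 in Con mice and 64.7, 109.1 and 158.5 in Exe mice. Exe 2, Exe 4 and Exe 6 lay over the Con range and Exe 5 under it. The log2 fold change was 0.20 (95% limits -0.18 to 0.58, adjusted p = 0.929 from limma). It was 0.09 without Exe 2 and 0.34 without Exe 5 (unadjusted p = 0.0298 from limma).

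Thrsp (21835), also called Spot 14, is a small thyroid hormone-responsive protein of lipogenic tissues. Its lowest, median and highest FPKM were 123.4, 244.5 and 404.9 in Con mice and 131.5, 436.2 and 818.5 in Exe mice. The Exe mice fell into a high and a low set, with none between 203.1 and 669.3 FPKM. Exe 1 (669.3 FPKM), Exe 2 (818.5 FPKM) and Exe 6 (807.7 FPKM) were above every Con mouse, while Exe 3, Exe 4 and Exe 5 were between 131.5 and 203.1 FPKM. Its fitted log2 fold change was 0.57 (95% limits -0.45 to 1.59, adjusted p = 0.929 from limma), and the exact permutation test, two-sided, gave p = 0.323. With a mouse removed it ran from 0.34 without Exe 2 to 0.86 without Exe 5. Its limits, as folds, were 0.73 and 3.01, the widest of the 10 genes.

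**Figure D2:**
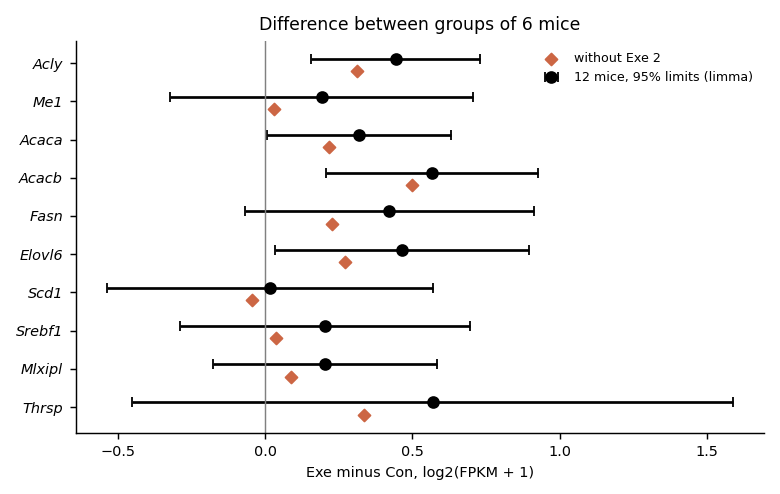
Log2 fold change of each gene, Exe minus Con, on the log2(FPKM + 1) scale with 95% confidence limits from limma (black, 12 mice) and its value without Exe 2 (orange diamonds). The limits of Acly, Acaca, Acacb and Elovl6 lie above 0, without adjustment for the number of genes, and the 6 others include 0.

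The spread between mice was wide for these genes. The SD of log2(FPKM + 1) within groups was 0.95 for Thrsp, 0.51 for Scd1, 0.48 for Me1 and between 0.26 and 0.46 for the others, against a median of 0.14 over all genes tested. Thrsp was above 99.6% of all genes tested in this spread, Scd1 above 97.8%, and Acly, the lowest of the 10, above 87.5%. In 9 of the 10 genes, all but Scd1, the SD was larger in Exe than in Con mice, as it was in 54.8% of all genes tested. Since the 10 genes vary together, this count is not of independent genes. It was 2.96 times as large for Elovl6, 2.77 times for Acly and 2.46 times for Acacb, where the median ratio over all genes tested was 1.05. Without Exe 2 these ratios were 1.48, 1.06 and 2.53. The SD was then larger in Exe mice in 6 of the 10 genes, and in 52.3% of all genes tested. For Acly the coefficient of variation was 8.54% in Con mice and 27.8% in Exe mice, or 9.22% without Exe 2. The difference in spread between groups was not tested.

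A pair of mice set the ends of most ranges. Exe 2 was the highest mouse in 8 of the 10 genes, with Scd1 (highest in Con 6) and Acacb (highest in Exe 6) as the exceptions, and the log2 values of the 10 genes in Exe 2 were on average 0.88 above their means over the 12 mice. Con 2 was the lowest mouse in 6 genes and among the lowest 3 in 9 genes, with an average of -0.62. The average of Exe 6 was 0.39, and those of the other 9 mice lay between -0.19 and 0.15. Over all genes tested, the median deviation of Exe 2 was 0.06 and that of Con 2 was 0.00 (log2). Exe 2 also had the highest hepatocyte list sum (80058 FPKM) and the lowest sum of 6 Kupffer cell markers (90.6 FPKM), and Con 2 had the highest Kupffer cell sum (242.6 FPKM). The Kupffer cell sums ran from 129.9 to 242.6 FPKM in Con mice and from 90.6 to 228.7 FPKM in Exe mice, and those of the hepatocyte list from 54973 to 73197 FPKM and from 64019 to 80058 FPKM. By log2 fold change, 7 of the 7 hepatocyte genes were higher in Exe mice, as were 57.5% of all genes tested. The count was 6 with quantile normalization, 5 with median ratio scaling or without Exe 2, and 4 without Con 1. Alb (0.34, adjusted p = 0.793 from limma) and Cps1 (0.29, adjusted p = 0.777 from limma) led, while Ttr was at 0.008 and Apob at 0.004. Of the 6 Kupffer cell genes, 0 were higher in each of these settings. The part of both lists in the values of the lipogenic genes was not tested.

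**Figure D3:**
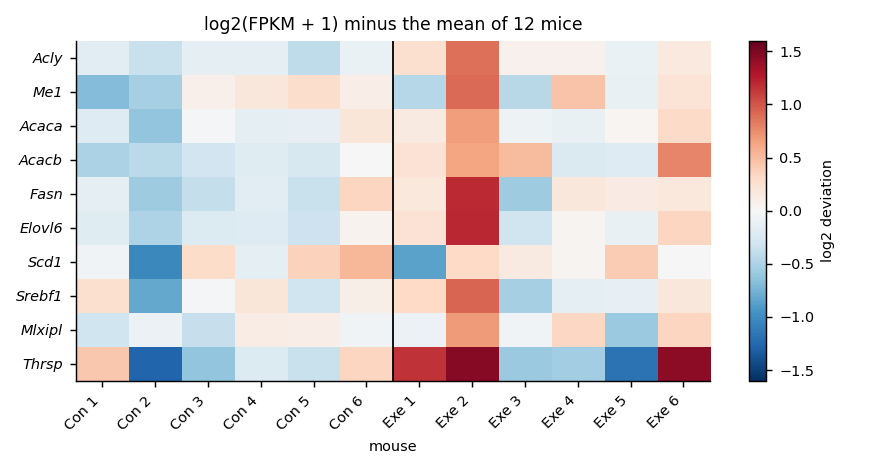
Log2(FPKM + 1) of each gene in each mouse minus the mean of the 12 mice, with red above and blue below the mean and a line between the Con and the Exe mice. The column of Exe 2 is red in all 10 genes, and that of Con 2 is blue or near white.

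Over the 12 mice, log2(FPKM + 1) of the 10 genes was positively correlated in 45 of 45 pairs, with a median Pearson's r of 0.65, whereas the median r of these genes with all genes tested was 0.09. With 100000 permutations and Benjamini-Hochberg adjustment over the 45 pairs, 23 pairs were past 0.05 by Pearson's r and 10 by Spearman's rho. The median r was 0.62 within Con mice and 0.64 within Exe mice. These relations rested in large part on Exe 2. Without it the median r was 0.43, and 4 pairs were past an adjusted p of 0.05. With the 2 mice farthest from the median of the first gene left out, 8 pairs were past an unadjusted p of 0.05 (permutation test) and 0 after adjustment.

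Elovl6 was the gene with the most partners, past an adjusted p of 0.05 with 8 of the other 9 genes. Fasn and Elovl6 were the closest pair, with r = 0.94 (adjusted p = 0.00112) and rho = 0.92 (adjusted p = 0.00495, permutation tests). For this pair r was 0.95 within Con mice and 0.94 within Exe mice, and 0.81 without Con 2 and Exe 2, the mice farthest out (unadjusted p = 0.0051, permutation test). Of their promoter windows printed above, that of Fasn held 3 CCAAT boxes and that of Elovl6 none. The part of this box in the co-variation of any pair was not tested. Acly and Elovl6 followed with r = 0.94 (adjusted p = 0.0024) and rho = 0.83 (adjusted p = 0.0191, permutation tests), and Acaca and Elovl6 with r = 0.90 (adjusted p = 0.00112) and rho = 0.81 (adjusted p = 0.0191, permutation tests). For the pair with Acly r was 0.74 without Exe 1 and Exe 2, and for the pair with Acaca it was 0.81 without Con 2 and Exe 2.

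Of the regulators, Srebf1 went with Elovl6 (r = 0.84, adjusted p = 0.00486, rho = 0.75, adjusted p = 0.0328, permutation tests) and with Thrsp (r = 0.81, adjusted p = 0.00566, rho = 0.83, adjusted p = 0.0191, permutation tests). For Srebf1 and Elovl6, r was 0.58 without the mice farthest out for Srebf1 (Con 2 and Exe 2) and 0.72 without those farthest out for Elovl6 (Exe 2 and Exe 6). For Srebf1 and Thrsp it was 0.68 without Con 2 and Exe 2. Srebf1 and Fasn had r = 0.83 (adjusted p = 0.00692), but rho = 0.64 was not past the adjusted threshold (adjusted p = 0.0824, permutation tests), and r was 0.57 without Con 2 and Exe 2. Mlxipl was past the threshold by both measures with Me1 alone (r = 0.71, adjusted p = 0.0265, rho = 0.79, adjusted p = 0.0191, permutation tests), and this r was 0.46 without Con 1 and Exe 2 (unadjusted p = 0.179, permutation test) and 0.65 without Exe 2 and Exe 5, the mice farthest out for Mlxipl. The 2 regulators were weakly related to each other (r = 0.41, adjusted p = 0.231, rho = 0.19, adjusted p = 0.658, permutation tests).

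Scd1 stood apart from the other 9 genes, with 0 of its 9 pairs past the threshold and r from 0.01 (Thrsp) to 0.53 (Me1). Within Con mice 8 of its 9 values of r were above 0.4, up to 0.95 with Acaca, but within Exe mice the highest was 0.47. Con 2 had the lowest Scd1 (326.94 FPKM, next Con mouse 598.59 FPKM) and was also lowest in Fasn, Acaca, Elovl6, Srebf1 and Thrsp. The Con values of r may rest on this mouse and were not computed without it. Over both groups without Con 2 and Exe 1, the mice farthest out for Scd1, r ran from -0.20 (Mlxipl) to 0.36 (Acaca). In Exe 1, Scd1 was at its lowest Exe value (368.0 FPKM) while Thrsp was at 669.3 FPKM. The difference between groups in these correlations was not tested.

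**Figure D4:**
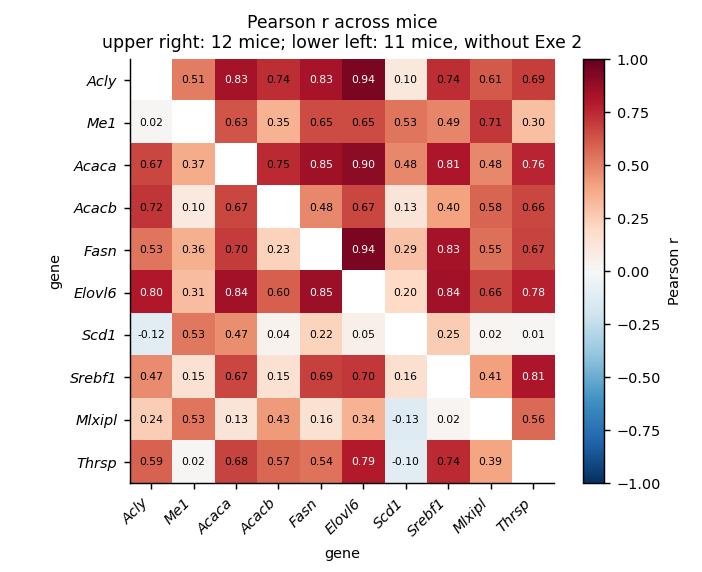
Pearson's r of log2(FPKM + 1) for each pair of the 10 genes, over the 12 mice in the upper right and over the 11 mice without Exe 2 in the lower left. The row and column of Scd1 are the palest, and the values in the lower left are mostly smaller, with a median of 0.43 against 0.65.

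Of the genes outside the 10, those most like them by mean Pearson's r with the 10 genes, taken over the deviations of the 12 mice from their group means, were Rbm25 (0.71), Phykpl (0.70), Supv3l1 (0.70), Nudt19 (0.69) and Shmt1 (0.69). Each had its highest value in Exe 2, and their mean r without Exe 2 was between 0.56 and 0.62. Most opposed were Fabp5 (-0.71), a fatty acid binding protein, Fyb (-0.69), an adaptor of blood cells, and Hdac8 (-0.69), a histone deacetylase, whose r without Exe 2 was between -0.53 and -0.59. For Fabp5 the values were 27.4 FPKM in Exe 2 and 152.3 FPKM in Con 2. The genes at both ends were picked by this r out of all genes tested, with Exe 2 included. Their r, with or without Exe 2, and their place in Exe 2 follow in part from that choice.

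Around the 10 genes, 8 lists of the pathway were counted, with 95 genes in all, of which 89 were tested. Exe mice had higher values in 52 of these and lower values in 37, and the median log2 fold change was 0.03. At an unadjusted p of 0.05, 7 of the 89 were higher and 1 was lower, where 4.27% of all genes tested were higher and 1.94% lower. An adjusted p of 0.05 from limma was reached by 0 of them. The median of each list lay between -0.04 and 0.08, close to that of all genes tested.

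In the supply of acetyl-CoA and NADPH, 3 of 11 genes tested passed an unadjusted p of 0.05, all higher in Exe mice. Acss2, which makes acetyl-CoA from acetate, was at 82.7 ± 15.4 FPKM in Con and 100.9 ± 15.3 FPKM in Exe mice (SD, n = 6), with a fitted log2 fold change of 0.29 (limma, adjusted p = 0.793). Pgd, an NADPH-forming enzyme of the pentose phosphate pathway, was at 24.6 ± 2.58 and 29.0 ± 3.53 FPKM (log2 fold change 0.23), with 4 of 6 Exe mice above every Con mouse. Nnt, the gene of a transhydrogenase in the mitochondria and not the cytosol, was at 10.3 ± 1.13 and 11.5 ± 0.43 FPKM (log2 fold change 0.16). Exe 2 was not the highest mouse in any of these 3 genes. Whether these mice make a working Nnt protein cannot be read from RNA, and NADPH supply was not measured.

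Of the elongases and desaturases, 1 of 12 genes tested passed an unadjusted p of 0.05. Fads1, the delta-5 desaturase of polyunsaturated fatty acids, was at 114.3 ± 10.8 FPKM in Con and 131.9 ± 18.01 FPKM in Exe mice (log2 fold change 0.20, adjusted p = 0.799 from limma). Of the list of ACC control and the Spot 14 family, 2 of 8 passed. Mid1ip1, the paralog of Thrsp that promotes polymerization of acetyl-CoA carboxylase, was at 34.2 ± 3.63 and 47.4 ± 16.99 FPKM (log2 fold change 0.40, adjusted p = 0.799 from limma), with the highest value again in Exe 2 (77.9 FPKM). Prkag2, a regulatory subunit of AMPK, the kinase that inactivates both carboxylases, was at 7.61 ± 1.15 and 8.88 ± 0.51 FPKM (log2 fold change 0.21).

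Of the ChREBP partners and targets, 1 gene was higher and 1 lower among 12 tested. Tm6sf2, a membrane protein of lipid export, was at 18.3 ± 0.99 FPKM in Con and 22.3 ± 4.06 FPKM in Exe mice (log2 fold change 0.26, adjusted p = 0.793 from limma), and every Con mouse was below 5 of the 6 Exe mice. For Pklr, the liver pyruvate kinase, Exe 2 held 231.2 FPKM, while the Con mice ran from 67.7 to 111.1 FPKM.

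The lists of SREBP processing (10 genes tested), LXR and its targets (11), glycerolipid synthesis (10) and insulin input with other transcription factors (15) had 0 genes past an unadjusted p of 0.05 from limma. The genes with the largest log2 fold changes there were Srebf2 (0.12, adjusted p = 0.929), Nr1h2 (-0.12, adjusted p = 0.8997), Lpin1 (-0.26, adjusted p = 0.931) and Ppargc1b (-0.14, adjusted p = 0.8997). In the LXR list 10 of 11 genes had a log2 fold change below 0, also with quantile normalization and median ratio scaling, with a median of -0.04. Of all 10241 genes tested, 4349 were below 0. The count in the LXR list was 7 without Con 5 or without Exe 1. Most of its values were small, such as -0.01 for Abcg8 and -0.02 for Rxrb.

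**Figure D5:**
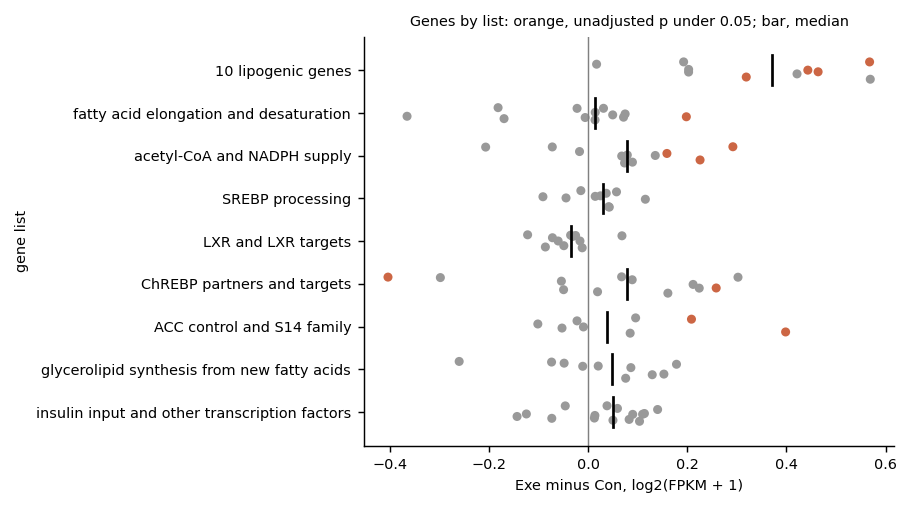
Log2 fold change, Exe minus Con on the log2(FPKM + 1) scale, of the 10 lipogenic genes and of the tested genes of 8 lists around them, with a point per gene, orange for an unadjusted p under 0.05 from limma, and a bar at the median of each list. The median of the 10 genes is 0.37 and those of the 8 lists are between -0.04 and 0.08.

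Genes of the fasted state and the clock, which are known to move with feeding and time of day as lipogenesis does, were read in the same mice. The sum of 9 fasting genes ran from 1333 to 2405 FPKM in Con and from 1193 to 1968 FPKM in Exe mice. Pck1, the gluconeogenic enzyme, was at 1080 FPKM in Con and 784.5 FPKM in Exe mice (log2 fold change -0.44, adjusted p = 0.81 from limma). Of the clock genes, Dbp ran from 35.4 FPKM in Con 2 to 98.1 FPKM in Con 5, and from 23.5 FPKM in Exe 3 to 80.0 FPKM in Exe 2. The average log2 deviation of the lipogenic genes was -0.62 in Con 2 and 0.88 in Exe 2. It was -0.14 in Con 5, the mouse with the highest Dbp, and 0.39 in Exe 6, where Dbp was at 30.8 FPKM. Dbp therefore did not follow the lipogenic genes in every mouse. It was named after its values were seen. The hour of death and last meal of each mouse are not given in the sources used here, and their part in the lipogenic genes was not tested.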

How the data were processed

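RNA from the livers of 12 mice, 6 per group, was read in pairs on a DNBseq instrument. After a quality filter, the authors used HISAT against GRCm39 and deposited a table of FPKM for each mouse. In the study, principal component analysis served to leave out outlying mice. Bowtie2 and mm10 also stand in the submitters' processing notes, with no role. The tool behind the FPKM is not given in the sources used here, and neither is any scaling between mice. Since FPKM are not counts, tests that need counts were not run, and limma was used in place of the study's DESeq.

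Groups and replicate numbers came from the sample titles. The fit was limma 3.58.1 under R 4.3.3 (lmFit, eBayes with trend) on log2(FPKM + 1), a scale that understates changes of low genes. Other steps used scipy 1.17.1, pandas 2.3.3 and numpy 2.4.6 (Python 3.11.15), and plots matplotlib 3.10.9. Genes had to reach 1 FPKM in 6 mice or more. The fit was tested on simulated data. For single genes, all splits of the mice into 6 and 6 gave the exact test. Correlations were tested with 100000 permutations. Gene lists were counted without a set test. The genes and lists were chosen with earlier results of these data known.

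The rule for named genes took the 10 genes, in each list those with an unadjusted p under 0.05 or else the one with the largest log2 fold change, and the 5 most alike and 3 most opposed genes. Pklr, Car3, Pck1, Dbp, Alb and Cps1 were named after their values were seen. Marker lists for hepatocytes, fat tissue, red blood cells, pancreatic acinar cells, Kupffer cells, endothelium, stellate cells and fibroblasts, acute phase, fasting and the clock were summed per mouse. Alternatives were quantile normalization, median ratio scaling, no filter, a filter of 5 FPKM, a pseudocount of 0.1, robust moderation, the replicate block, and each mouse left out. Some genes that enter the list counts and sums are not reported here by name. Proteome and metabolome were not analysed here.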

Additional observations from a re-analysis of the deposited data

Results flagged for a closer look

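In groups of 6 mice, a mouse stood out where its gap to the nearest mouse, divided by the range of the group (Dixon's ratio), was above Dixon's 95% critical value. Chance flags about 1 in 20 sets, and of the 20 sets of the 10 lipogenic genes 3 were flagged, all for Exe 2. These 3 genes vary together between mice, so their flags are not independent. The ratio was 0.717 for Fasn (148.2 FPKM, next Exe mouse 72.9 FPKM), 0.71 for Acly (119.1 FPKM, next 77.0 FPKM) and 0.689 for Elovl6 (28.6 FPKM, next 15.3 FPKM).

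Among the other genes and marker sums examined, Exe 2 stood out in Tm6sf2 (30.2 FPKM, ratio 0.742) and Pklr (231.2 FPKM, ratio 0.757), and Con 2 as the lowest in Supv3l1 (5.76 FPKM, ratio 0.683) and Shmt1 (65.5 FPKM, ratio 0.703) and the highest in Hdac8 (3.41 FPKM, ratio 0.691). Exe 5 stood out in the pancreatic acinar sum (29.9 FPKM, ratio 0.772) and the acute-phase sum (39548 FPKM, ratio 0.798), and Con 5 was low in the sum of stellate cell and fibroblast markers (47.6 FPKM, ratio 0.672). In all, 11 of 92 sets were flagged, with genes near 0 in all mice left out. Tm6sf2, Pklr, Supv3l1, Shmt1 and Hdac8 were picked from these same values, so this count cannot be set against the 1 in 20 of chance. The causes were not tested.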

How the results depend on the processing

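Counts of genes and pairs stayed within 1.5 times in 101 recomputations and moved further in 11. Of 10 lipogenic genes, 4 passed an unadjusted p of 0.05. The count was 2 with the replicate block and 2 to 5 with 1 mouse left out in turn, at 2 without Con 1, Con 2, Con 4, Con 5, Exe 1 or Exe 6, where fewer mice entered the fit. Acaca and Elovl6 had unadjusted p of 0.0881 and 0.0528 from limma with the block. Leaving out Exe 2 in the comparison of spread, and the directions of lists under each setting, were chosen after seeing the data. Acly and Acacb passed in every fit run. The genes past an adjusted p of 0.05 numbered 0, and 1 with no filter on low values. The 636 genes at an unadjusted p of 0.05 became 418 without Exe 2 and up to 905 without Exe 5. The share of them higher in Exe mice, 68.7%, was 56.4% with quantile normalization and 52.6% with median ratio scaling. The 23 correlated pairs became 4 without Exe 2, 14 without Con 2, and up to 25 with another mouse left out. Of 190 recomputed log2 fold changes of the 10 genes, 7 changed sign, all of Scd1: -0.0183 with quantile normalization, -0.0019 with median ratio scaling, and -0.19, -0.01, -0.04, -0.0099 and -0.06 without Con 2, Con 4, Exe 2, Exe 3 and Exe 5, within a range of -0.19 to 0.19 with 1 mouse left out. The causes were not tested.

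Con and Exe mice share replicate numbers, but same-numbered mice did not deviate together (correlations from -0.48 to 0.16), and 1 of 6 Con mice correlated best with its own number, so the numbers were not read as pairs. With the replicate block 567 genes passed an unadjusted p of 0.05 and 0 an adjusted one. The depth in reads is unknown, so counting error of low genes could not be given.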

Other observations

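The other marker sums gave these ranges in FPKM. Red blood cell genes ran from 235.1 to 903.0 in Con and from 400.3 to 1290 in Exe mice. Pancreatic acinar genes ran from 8.51 to 17 and from 13.0 to 29.9, and sinusoidal endothelium from 42.3 to 68.3 and from 49.8 to 60.7. Genes of stellate cells and fibroblasts ran from 47.6 to 93.3 and from 49.1 to 93.3. The acute-phase sum ran from 6929 to 39252 and from 7470 to 39548, and the clock sum from 144.1 to 262.9 and from 136.3 to 238.5. The fat tissue list, nearly all of it Car3, which hepatocytes also express, ran from 920.8 to 2207 and from 1005 to 1836.

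Shmt1, a folate enzyme that was among the genes most like the 10 lipogenic genes, was at 81.2 FPKM in Con and 96.8 FPKM in Exe mice on average (log2 fold change 0.24, adjusted p = 0.799 from limma).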
